A study of Mus musculus with 10 samples.

Results

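The E2F family was followed through the counts of 10 genes, out of 48795 listed in the deposited count table. They are the activators E2f1, E2f2 and E2f3, the repressors E2f4, E2f5 and E2f6, the atypical members E2f7 and E2f8, and the dimerization partners Tfdp1 and Tfdp2. They were chosen by gene symbol, and all 10 passed the filter on low counts, as did 12859 genes in all. RNA-seq was done on neural stem and progenitor cells (NSC/NPCs) cultured from the subependymal zone of 10-week-old mice, which the study kept on a C57BL/6 J background. Proliferating neurospheres (PRO) are floating aggregates grown for 3 days with 20 ng/ml EGF and 10 ng/ml FGF, and differentiating cells (DIFF, 2 + 1 DIV) were seeded at 40000 cells/cm2 on Matrigel with FGF, grown for 2 days and collected 24 h after the mitogens were replaced by 2% FBS. Stage therefore combines mitogen withdrawal with attachment and serum. There were 3 WT libraries of each stage and 2 libraries of each stage labelled p27KO, from mice mutant for Cdkn1b, the gene of the CDK inhibitor p27. The series describes its replicates as biological, without saying whether each came from its own animal, so that p-values measure the spread between these libraries.

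E2F proteins bind the promoters of genes for S phase entry, most of them as dimers with a DP protein, the products of Tfdp1 and Tfdp2. The pocket proteins RB, p107 and p130 hold activator and repressor E2Fs in repressive complexes until cyclin-dependent kinases phosphorylate them, and p27 inhibits these kinases. E2F6 represses without pocket proteins, as a subunit of a Polycomb repressive complex. E2F7 and E2F8 bind DNA without a DP partner and repress E2F targets, and genes of the activator and atypical members are themselves E2F targets.

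The totals ranged from 19190068 to 25291674 counts per library. The free-text descriptions of the 4 libraries labelled p27KO name WT cells, and Cdkn1b counts were not lost in them, with 102 ± 16.3 CPM (the count scaled to a fixed library total; SD, n = 2) in PRO and 139 ± 2.17 CPM (SD, n = 2) in DIFF, against 107 ± 5.12 and 207 ± 1.68 CPM (SD, n = 3 each) in WT. They also held 2258 to 3595 CPM of Xist and at most 0.585 CPM of 4 Y-linked genes, against at most 2.57 and at least 189 CPM in WT, so that genotype and sex cannot be told apart. Of 7 progenitor markers, all passed the filter, and their summed level was 5284 to 8199 CPM over the 10 libraries. The 4 microglial and the 4 fibroblast markers were together at most 0.580 and 1.42 CPM. The 4 endothelial and mural markers summed to 1.65 to 2.77 CPM in PRO and 7.99 to 20.1 CPM in DIFF. Neuronal markers summed to 5.26 to 9.31 CPM in PRO and 23.6 to 72.8 CPM in DIFF. For oligodendrocyte markers the sums were 3.44 to 5.53 CPM in PRO and 27.6 to 45.8 CPM in DIFF. Astrocyte markers summed to 616 to 873 CPM in PRO and 1941 to 2404 CPM in DIFF.

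Promoters are shown for 4 of the 5 members whose RefSeq start lies within 2 bases of the annotated gene start, with matches to E2F motifs, since several members are known E2F targets and moved together with stage. The stretches run from 230 bases before the RefSeq start through the first 30 transcribed bases (RefSeq, GRCm38.p6), 5′ to 3′ on the strand of the gene. Capitals mark matches on either strand to TTNNCGC with C or G at each N, extended by a base where the match is part of the longer motif TTTNNCGC with the same choice of letters. E2f3 and E2f7 are shown as members holding the longer motif, E2f8 as one holding only the shorter motif, and E2f6 as one without either. A second RefSeq window of E2f3, whose start lies 1672 bases past the annotated gene start, held neither motif and is not printed.
E2f3, chr13:29986034-29986293, minus strand: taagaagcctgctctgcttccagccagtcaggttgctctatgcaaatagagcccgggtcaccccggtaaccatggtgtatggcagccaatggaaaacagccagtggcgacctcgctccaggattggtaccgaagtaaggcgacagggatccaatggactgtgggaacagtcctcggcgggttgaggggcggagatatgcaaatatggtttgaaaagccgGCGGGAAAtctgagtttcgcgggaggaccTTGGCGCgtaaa
E2f7, chr10:110745209-110745468, plus strand: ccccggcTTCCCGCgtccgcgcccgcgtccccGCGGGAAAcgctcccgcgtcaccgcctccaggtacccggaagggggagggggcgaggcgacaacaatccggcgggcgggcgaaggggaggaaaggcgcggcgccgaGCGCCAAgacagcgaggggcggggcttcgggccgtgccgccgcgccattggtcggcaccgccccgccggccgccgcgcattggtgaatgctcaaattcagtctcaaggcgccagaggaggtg
E2f8, chr7:48881567-48881826, minus strand: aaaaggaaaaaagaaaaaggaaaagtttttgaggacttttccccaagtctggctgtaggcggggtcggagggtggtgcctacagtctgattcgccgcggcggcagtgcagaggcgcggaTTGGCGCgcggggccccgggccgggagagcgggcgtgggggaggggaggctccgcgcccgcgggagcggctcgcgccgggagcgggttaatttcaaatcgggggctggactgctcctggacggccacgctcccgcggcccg
E2f6, chr12:16810735-16810994, plus strand: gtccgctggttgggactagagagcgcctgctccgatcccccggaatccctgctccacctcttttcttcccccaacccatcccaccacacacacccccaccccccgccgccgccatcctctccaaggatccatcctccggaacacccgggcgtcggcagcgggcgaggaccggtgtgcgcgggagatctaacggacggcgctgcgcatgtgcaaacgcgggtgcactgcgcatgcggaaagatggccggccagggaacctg
In these stretches, counted from the RefSeq start as base 0, E2f3 had a match to the longer motif on the opposite strand, whose 7-letter part spans -11 to -5, and a 7-letter match from 18 to 24. E2f7 had 3 matches, of which the one with bases -198 to -192 was part of the longer motif. E2f8 had a single 7-letter match, from -111 to -105. Windows of 300 bases were at hand for 8 of the 10 members. The longer motif was present in 4 of these 8 genes (E2f2, E2f3, E2f7 and Tfdp1) and the shorter in 5, with E2f8 added. Every longer motif contains a shorter one, so that the counts overlap. Counted by window, 5 of the 12 windows of these genes held the longer and 6 the shorter motif (41.7% and 50%). Windows of Tfdp1, with starts 0 and 53 bases past its annotated start, overlap and count the same match again. Of all 32851 RefSeq windows of this length, 2.26% held the longer and 9.57% the shorter motif. A second window of E2f2, whose start lies 8388 bases past the annotated gene start, held neither. The window of E2f1 lies inside the gene, 466 bases past its annotated start, and those of Tfdp2 lie 62430 and 62973 bases past it, so that they do not represent the annotated starts. A match is a sequence of letters and shows no binding, and its absence from a window says nothing of the factor.

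**Figure D1:**
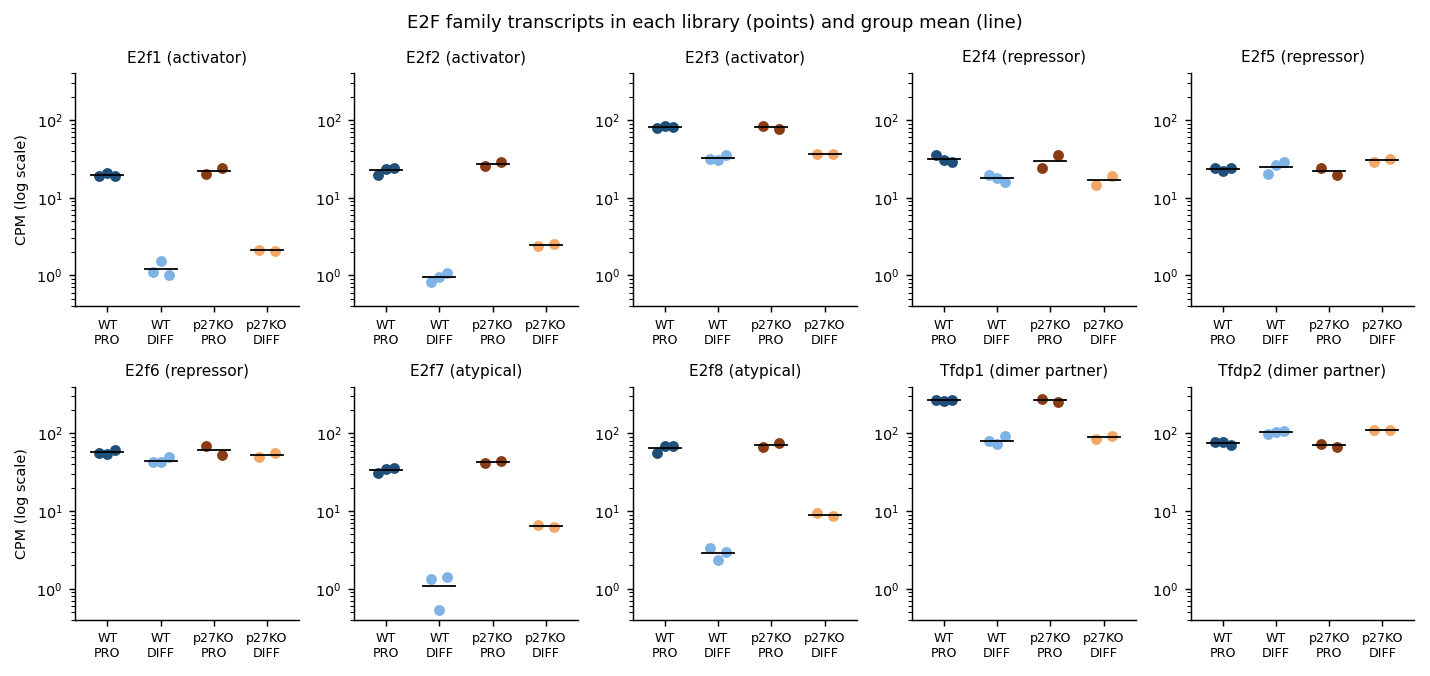
Level of each E2F family gene in CPM (log axis) in the 10 libraries, with points for libraries and a line for the mean of the 2 or 3 libraries of a group. E2f1, E2f2, E2f7 and E2f8 were at 18.8 CPM or more in every neurosphere library and below 10 CPM in every library at 2 + 1 DIV.

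The question of the stage comparison was what happens to the E2F genes when WT cells leave the proliferative state. In WT cells, 8 of the 10 members were lower at 2 + 1 DIV, 1 was higher and E2f5 did not pass the test. The falls were steepest for the activators E2f1 and E2f2 and for both atypical members, smaller for Tfdp1 and E2f3, and smallest for E2f4 and E2f6. Adjusted p-values come from a two-sided quasi-likelihood test in edgeR, corrected by the Benjamini-Hochberg method across all genes tested, and genes are counted at a threshold of 0.05. Of all genes tested, 33.9% were lower and 33.5% were higher in the same comparison. The median log2 fold change of the members was -1.53, and that of all genes tested was -0.0019. The lowest and highest libraries of the stages did not overlap for 9 of the 10 members, as for 71.9% of all genes tested. In bulk RNA, fewer cells that express a gene and less of its RNA per cell cannot be told apart.

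Among the activators, E2f1 (ENSMUSG00000027490, chr2:154559407-154569892, minus strand) encodes the founding member, which drives S phase genes. It gave 18.8, 21.1 and 19.1 CPM in the WT neurosphere libraries and 1.12, 1.53 and 1.03 CPM in those at 2 + 1 DIV, from 361 to 529 and from 22 to 37 counts. Every neurosphere library was more than 10 CPM above every DIFF library. The log2 fold change was -4.00 (SE 0.18, adjusted p = 1.08e-07), a 16.0-fold lower level.

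E2f2 (ENSMUSG00000018983, chr4:136172394-136196057, plus strand), a close relative of E2f1, had 19.8, 23.7 and 23.9 CPM in WT neurospheres and 0.814, 0.953 and 1.07 CPM at 2 + 1 DIV. The stages were again far apart, at 23.7-fold (log2 fold change -4.56, SE 0.15, adjusted p = 3.94e-08). E2f3 (ENSMUSG00000016477, chr13:29906575-29986063, minus strand), the third activator, fell less. It had 78.3, 84.7 and 81.2 CPM in WT neurospheres and 31.2, 31.0 and 35.1 CPM at 2 + 1 DIV, a log2 fold change of -1.34 (SE 0.07, adjusted p = 3.40e-07). Counts per gene do not separate the transcripts E2f3a and E2f3b, which start at different promoters.

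The repressors moved little in comparison. E2f4 (ENSMUSG00000014859, chr8:105297663-105305370, plus strand), a partner of p107 and p130 in quiescent cells, had 35.6, 30.4 and 29.2 CPM in WT neurospheres and 19.6, 17.7 and 16.0 CPM at 2 + 1 DIV. The log2 fold change was -0.85 (SE 0.17, adjusted p = 0.0013). E2f5 (ENSMUSG00000027552, chr3:14578641-14606309, plus strand), the other partner of p107 and p130, had 24.4, 21.9 and 23.9 CPM in WT neurospheres and 20.4, 26.4 and 28.5 CPM at 2 + 1 DIV. These ranges overlapped, and the log2 fold change was 0.09 (95% confidence interval -0.21 to 0.39, adjusted p = 0.559). Exons of E2f5 overlap those of the antisense gene 1810022K09Rik, which was listed at 25.4 to 53.8 CPM, and the use of strand in counting is not given in the sources used here, so that the counts of E2f5 are uncertain. E2f6 (ENSMUSG00000057469, chr12:16810963-16839742, plus strand) had 55.8, 54.8 and 61.2 CPM in WT neurospheres and 42.5, 42.4 and 49.2 CPM at 2 + 1 DIV. Its libraries did not overlap between stages, although the change was small, at -0.37 on the log2 scale (SE 0.11, adjusted p = 0.0123).

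The atypical members fell as steeply as E2f1 and E2f2. E2f7 (ENSMUSG00000020185, chr10:110745439-110787384, plus strand) had 31.2, 34.5 and 35.8 CPM in WT neurospheres and 1.32, 0.539 and 1.42 CPM at 2 + 1 DIV, where it rested on 13 to 36 counts. It had the lowest log2 fold change of the 10 members, at -4.96 (SE 0.25, adjusted p = 1.94e-07), or 31.2-fold. E2f8 (ENSMUSG00000046179, chr7:48866429-48881596, minus strand) had 55.5, 68.0 and 68.9 CPM in WT neurospheres and 3.31, 2.32 and 3.00 CPM at 2 + 1 DIV. It was 22.5-fold lower (log2 fold change -4.49, SE 0.15, adjusted p = 3.94e-08). The antisense genes whose exons overlap these members held at most 1 count (1700020G17Rik, E2f7) and 9 counts (Gm2788, E2f8) in any library.

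The dimer partners moved in opposite directions. Tfdp1 (ENSMUSG00000038482, chr8:13338751-13378448, plus strand), which encodes DP1, had 266, 264 and 265 CPM in WT neurospheres and 78.8, 72.2 and 91.4 CPM at 2 + 1 DIV, a log2 fold change of -1.73 (SE 0.09, adjusted p = 2.02e-07). Tfdp2 (ENSMUSG00000032411, chr9:96196275-96323646, plus strand), which encodes DP2, had 76.2, 77.4 and 70.1 CPM in WT neurospheres and 98.7, 104 and 107 CPM at 2 + 1 DIV. It was the single member that rose in WT, by 0.46 on the log2 scale (SE 0.07, adjusted p = 2.98e-04).

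**Figure D2:**
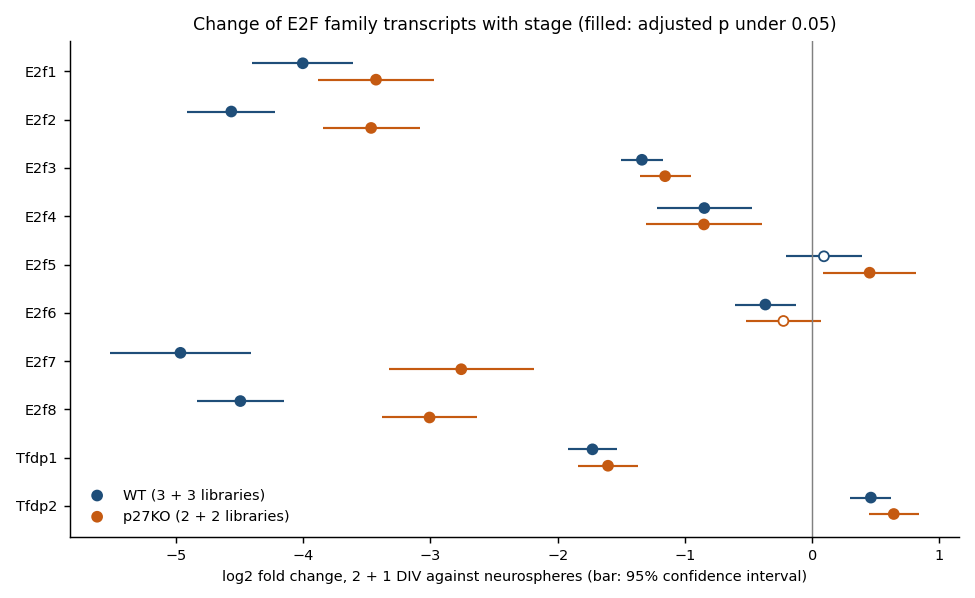
Fitted log2 fold change of each member at 2 + 1 DIV against neurospheres in WT (3 + 3 libraries) and p27KO (2 + 2 libraries), with 95% confidence intervals and filled points at an adjusted p under 0.05. E2f1, E2f2, E2f7 and E2f8 lie furthest to the left in both genotypes, and the intervals of E2f2, E2f7 and E2f8 do not overlap between genotypes.

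Levels of different genes were compared per kb of merged exon. In WT neurospheres the order was Tfdp1, E2f3, E2f5, E2f4, E2f8, E2f6, E2f1, Tfdp2, E2f2 and E2f7, from 72.3 ± 0.251 CPM per kb of Tfdp1 to 3.76 ± 0.268 CPM per kb of E2f7 (SD, n = 3). The libraries of E2f5, E2f4, E2f8 and E2f6 overlapped with their neighbours in this order. At 2 + 1 DIV the order in WT became Tfdp1, E2f5, E2f6, Tfdp2, E2f4, E2f3, E2f8, E2f1, E2f2 and E2f7. Here E2f6, Tfdp2 and E2f4 overlapped, as did E2f8 and E2f1, and E2f7 was lowest at 0.122 ± 0.0537 CPM per kb (SD, n = 3). In the libraries labelled p27KO at 2 + 1 DIV, E2f7 stood above E2f1 and E2f2, at 0.707 ± 0.0264 CPM per kb (SD, n = 2) against 0.667 ± 0.0162 and 0.510 ± 0.0210 CPM per kb. The order depends on the length used. With the longest transcript in place of merged exons (7354 against 14029 bases for Tfdp2, 3018 against 5663 for E2f6), Tfdp1 stayed highest, E2f6 came second in WT at both stages, and E2f2 was lowest in neurospheres, at 4.74 CPM per kb. At 2 + 1 DIV in WT, E2f7 and E2f2 were then equal within their spread, at 0.200 ± 0.0885 and 0.199 ± 0.0268 CPM per kb (SD, n = 3), and in p27KO E2f7 was still above both E2f1 and E2f2.

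The summed level of E2f1 to E2f8 per kb went from 77.6 ± 1.29 to 36.4 ± 2.48 CPM per kb in WT (SD, n = 3). Activators held 33.3 ± 1.44% of this sum in WT neurospheres and 18.0 ± 0.448% at 2 + 1 DIV. Nearly all of the remaining activator level was E2f3, which held 19.3 ± 0.623% and then 16.4 ± 0.638% of the sum. The share of the repressors went from 46.7 ± 3.00% to 80.2 ± 0.891%, with E2f5 alone moving from 16.9 ± 1.13% to 38.5 ± 4.18%. Because the counts of E2f5 are uncertain, so are its place in the order per kb and the shares of this sum. The atypical members went from 20.0 ± 1.81% to 1.79 ± 0.444%. The libraries of the stages did not overlap in any of the 3 class shares. In p27KO libraries, activators, repressors and atypical members held 34.1 ± 0.0360%, 43.8 ± 1.50% and 22.1 ± 1.47% in PRO, and 18.2 ± 1.23%, 76.3 ± 1.92% and 5.44 ± 0.694% in DIFF (SD, n = 2). The atypical share at 2 + 1 DIV was 4.95% and 5.93% in the p27KO libraries and 1.34% to 2.22% in the WT libraries. No test was run on these shares, which describe transcripts, not proteins.

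**Figure D3:**
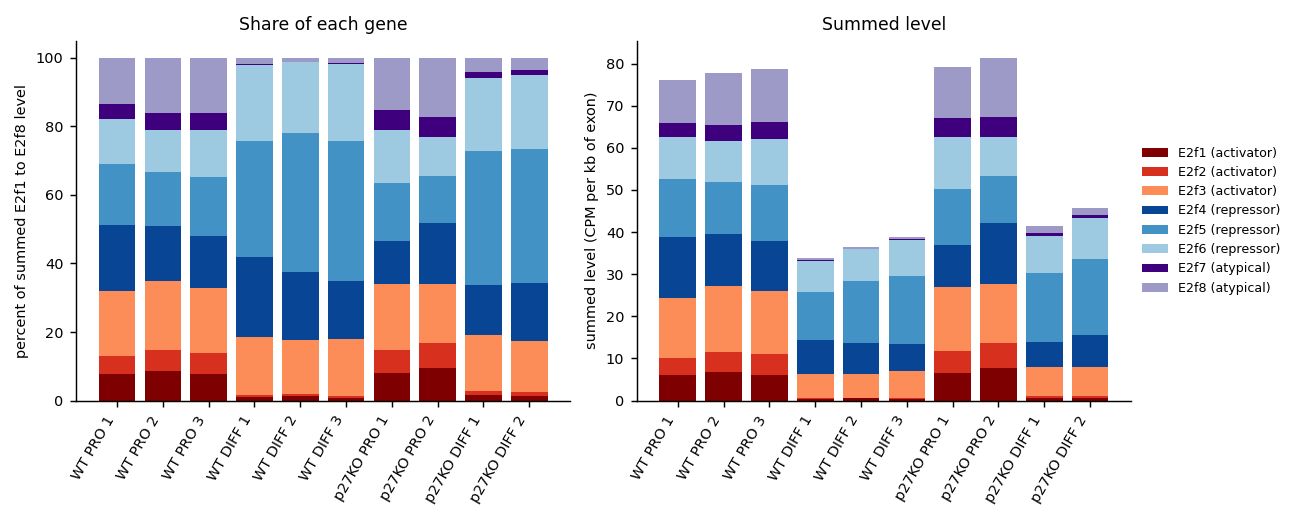
Share of E2f1 to E2f8 in their summed level per kb of exon (left, percent) and the summed level itself (right, CPM per kb), 1 bar per library. The blue repressor blocks take 44.1% to 50.0% of the sum in WT neurospheres and 79.3% to 81.1% at 2 + 1 DIV, while the purple atypical blocks nearly vanish. The repressor blocks include E2f5, whose counts are uncertain.

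In the libraries labelled p27KO, the same comparison of stages gave 7 members lower and 2 higher at 2 + 1 DIV, where 30.2% and 27.5% of all genes tested were lower and higher. The 7 were E2f1, E2f2, E2f3, E2f4, E2f7, E2f8 and Tfdp1, and the 2 were E2f5 and Tfdp2. The median log2 fold change of the members was -1.38, and that of all genes was -0.0291. The libraries of the stages did not overlap for 9 of the 10 members, as for 79.8% of all genes.

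E2f1 had 20.4 and 24.2 CPM in p27KO neurospheres and 2.14 and 2.07 CPM at 2 + 1 DIV, a log2 fold change of -3.43 (SE 0.20, adjusted p = 2.12e-06). E2f2 had 25.4 and 28.8 CPM and then 2.42 and 2.56 CPM, with a log2 fold change of -3.47 (SE 0.17, adjusted p = 1.03e-06). Both genes were thus about 11-fold lower (10.8 and 11.1), against 16.0-fold and 23.7-fold in WT. E2f7 had 41.0 and 43.8 CPM in neurospheres and 6.54 and 6.21 CPM at 2 + 1 DIV, a 6.76-fold lower level (log2 fold change -2.76, SE 0.25, adjusted p = 1.92e-05). E2f8 had 66.1 and 76.0 CPM and then 9.44 and 8.54 CPM, which is 8.04-fold lower (log2 fold change -3.01, SE 0.17, adjusted p = 1.71e-06). For all 4 genes the neurosphere libraries lay far above those at 2 + 1 DIV.

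The other members followed the WT pattern more closely. E2f3 fell by 1.16 and Tfdp1 by 1.60 on the log2 scale, with adjusted p = 7.45e-06 and 3.17e-06. E2f4 had 24.2 and 35.2 CPM in neurospheres and 14.7 and 18.8 CPM at 2 + 1 DIV, a log2 fold change of -0.85 (SE 0.20, adjusted p = 0.0055). The 2 neurosphere libraries of E2f4 differed widely, and its call was lost without replicate 1 at 2 + 1 DIV (adjusted p = 0.0519). Tfdp2 rose by 0.64 (SE 0.09, adjusted p = 2.10e-04). E2f5 had 23.9 and 19.9 CPM in neurospheres and 28.9 and 32.0 CPM at 2 + 1 DIV, a log2 fold change of 0.45 (SE 0.16, adjusted p = 0.0375). With the replicate number as a block its adjusted p was 0.0517, and the call was also lost with no filter on low counts (0.0911), with genes of at least 1 CPM in 4 libraries (0.0526) and without 3 of the 4 p27KO libraries (0.0725 to 0.180). E2f6 was at -0.23 (95% confidence interval -0.52 to 0.07, adjusted p = 0.166), and its neurosphere libraries were far apart, at 69.3 and 52.5 CPM. Without the second of these it passed, at -0.39 (adjusted p = 0.0275).

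The interaction asks whether the change with stage differed between genotypes. E2f7 and E2f8 passed this test, both with a smaller fall in the libraries labelled p27KO, and 0.389% of all genes passed in this direction, with 0 in the other. The difference between the changes was 2.21 on the log2 scale for E2f7 (SE 0.34, 95% confidence interval 1.44 to 2.97, adjusted p = 0.0323) and 1.49 for E2f8 (SE 0.21, 95% confidence interval 1.01 to 1.97, adjusted p = 0.0230). In edgeR, 554 of the 12859 genes tested had an unadjusted p under 0.05 in either direction. This is fewer than such a threshold lets through where no gene differs. DESeq2 called 153 genes in the direction of E2f7 and E2f8 and 4 in the other, with adjusted p = 2.62e-10 and 8.47e-07 for these 2 members. E2f2 was at 1.10 (95% confidence interval 0.60 to 1.60, adjusted p = 0.0963) and E2f1 at 0.58 (95% confidence interval -0.01 to 1.16, adjusted p = 0.9997). The other 6 members lay between -0.0032 and 0.36, each with an interval that included 0.

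Both interaction calls depended on the setting, while the size of the difference moved little. With the replicate number as a block, E2f7 had an adjusted p of 0.0502, and with a block within each genotype E2f7 and E2f8 had 0.0876 and 0.0761. With libraries left out in turn, E2f7 remained past the threshold in 3 of 10 fits, those without a WT library at 2 + 1 DIV, and ranged from 0.0078 to 0.195. E2f8 remained in 3 of 10 fits, and lost its call without replicate 3 of WT DIFF (0.0503), replicates 2 and 3 of WT PRO and each p27KO library (0.0703 to 0.181). In all of these fits the estimates stayed between 1.88 and 2.46 for E2f7 and between 1.37 and 1.61 for E2f8. Over all genes, 50 passed in the direction of these members as reported. With the block within each genotype 29 did, and with a WT library left out 0 to 89.

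**Figure D4:**
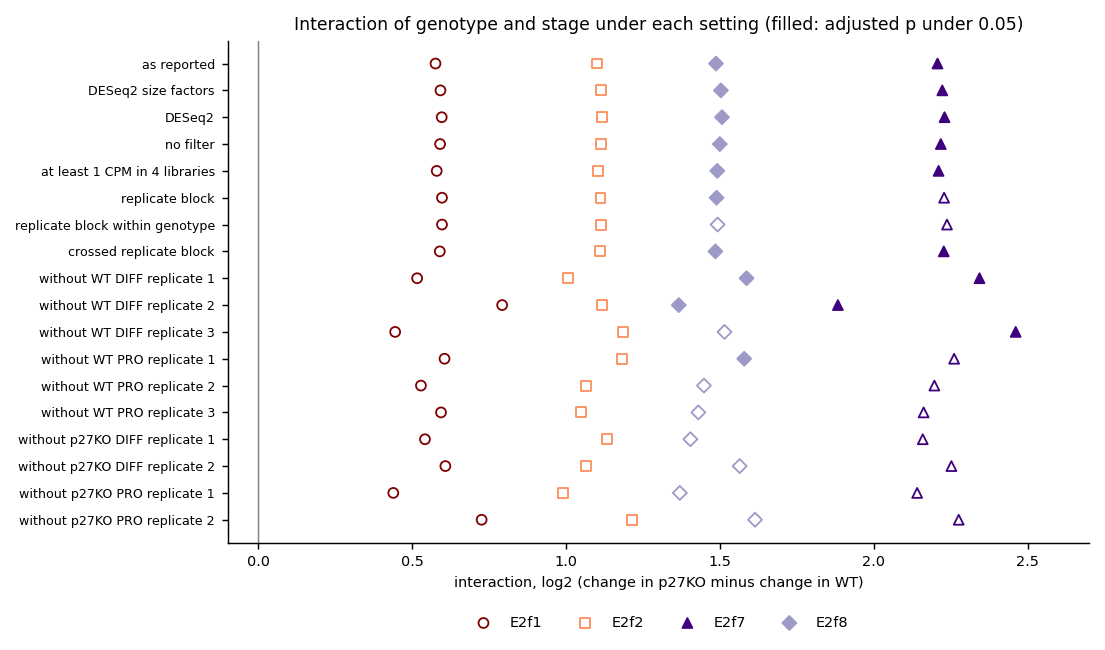
Interaction of genotype and stage (log2 scale, x axis) for E2f1, E2f2, E2f7 and E2f8 as reported and under each other setting (rows), with filled symbols at an adjusted p under 0.05. Symbols of each gene form nearly vertical columns, while E2f7 and E2f8 lose their filling in most of the rows that leave out a library.

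The genotypes were then compared at each stage. In neurospheres, no member differed in edgeR's test, and 0.0156% of all genes were higher in libraries labelled p27KO. The log2 differences of the members lay between -0.0683 (Tfdp2) and 0.35 (E2f7), every adjusted p was 0.9999, and 0 of the 10 had an unadjusted p under 0.05 or passed in DESeq2. The widest interval was that of E2f7, from -0.12 to 0.83, so that differences of this size were not detectable here. The libraries of E2f2 and E2f7 did not overlap between genotypes in neurospheres, as for 17.8% of all genes.

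At 2 + 1 DIV, 3 members were higher in the libraries labelled p27KO, where 1.91% of all genes were higher. No member was lower in edgeR or DESeq2, or at an unadjusted p under 0.05. The 3 were E2f7, by 2.56 on the log2 scale (SE 0.26, adjusted p = 9.56e-04), E2f8, by 1.66 (SE 0.16, adjusted p = 7.66e-04), and E2f2, by 1.40 (SE 0.17, adjusted p = 0.0030). In CPM, E2f7 was at 6.54 and 6.21 against 0.539 to 1.42 in WT, and no library of a genotype came near the other. E2f1 was at 2.14 and 2.07 CPM against 1.03 to 1.53 CPM, without overlap, but did not pass (log2 difference 0.79, 95% confidence interval 0.33 to 1.24, adjusted p = 0.104). Without replicate 2 of WT DIFF, its highest WT library, E2f1 was at 1.00 with an adjusted p of 0.0319. The remaining members lay between -0.069 (E2f4) and 0.29 (E2f5), none past the threshold. The median of the members was 0.27, against -0.0148 over all genes, and libraries did not overlap between genotypes for 8 of the 10, as for 37.3% of all genes. In a fit of only the libraries at 2 + 1 DIV, E2f8 kept its call (adjusted p = 0.0489), while E2f2 and E2f7 had adjusted p-values of 0.108 and 0.0715.

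Other transcripts moved with these differences. Mki67, a marker of cycling cells, was at 97.4 ± 26.4 CPM (SD, n = 3) in WT and 337 ± 33.4 CPM (SD, n = 2) in p27KO at 2 + 1 DIV, a log2 difference of 1.81 (adjusted p = 0.0011, or 0.0571 in a fit of only the libraries at 2 + 1 DIV). The summed level of Mki67 and Top2a was 110 to 204 CPM in WT and 533 to 616 CPM in p27KO at 2 + 1 DIV, and 1470 to 1614 and 1611 to 1708 CPM in neurospheres. The change of Mki67 with stage was -3.13 in WT and -1.48 in p27KO, and its interaction was 1.65 (adjusted p = 0.0392), a call that remained in 2 of 10 fits with a library left out (adjusted p up to 0.228). Cdkn1b itself was lower in p27KO at 2 + 1 DIV, by a log2 difference of -0.56 (adjusted p = 0.0120), a call that was lost without either p27KO library of that stage (adjusted p up to 0.152). The part of cell cycling in the E2f7 and E2f8 differences was not tested. For every 100 CPM of Mki67, E2f7 had 0.797 to 1.33 CPM in WT and 1.81 and 1.98 CPM in p27KO at 2 + 1 DIV, again without overlap. On the same scale E2f8 had 2.81 to 3.43 CPM in WT and 2.62 and 2.73 CPM in p27KO, and E2f1 had 0.951 to 2.27 and 0.594 and 0.661 CPM. E2f2 had 0.692 to 1.41 CPM in WT and 0.671 and 0.819 CPM in p27KO. E2f7 was thus higher per unit of Mki67 in p27KO, and the genotypes overlapped for E2f2. E2f8 and E2f1 were lower, as were E2f3 (26.5 to 45.9 in WT, 10.2 and 11.7 in p27KO), E2f4, E2f5, E2f6, Tfdp1 and Tfdp2. Mki67 itself was higher in p27KO, so that a gene at equal levels in both genotypes is lower on this scale. The ratio of E2f7 in WT rested on 13 to 36 counts, and the share of all genes without overlap on this scale was not computed. In neurospheres the same ratio of E2f7 was 3.80 to 4.32 in WT and 4.59 and 4.61 in p27KO.

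**Figure D5:**
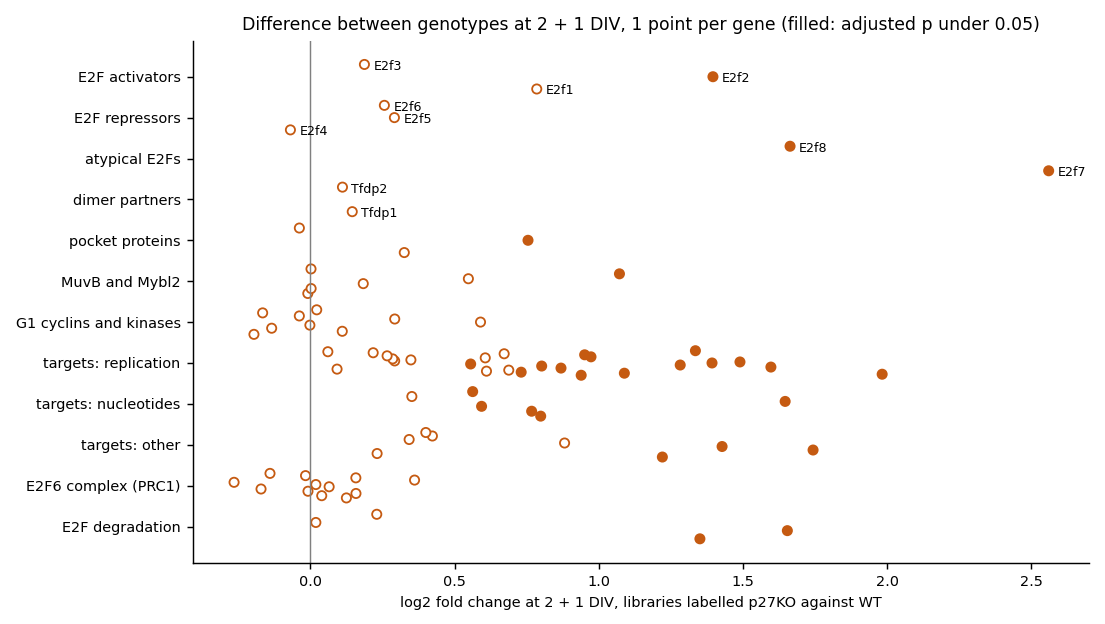
Log2 difference between libraries labelled p27KO and WT at 2 + 1 DIV (x axis) for the E2F members and for lists of E2F-related genes (rows), 1 point per gene, filled at an adjusted p under 0.05. All 39 points of the target lists lie to the right of 0, and E2f7 lies furthest to the right, at 2.56.

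Target genes of the E2Fs were described by 39 genes from 3 lists, which were drawn up from textbook knowledge with earlier results of these data known. In WT cells all 39 were lower at 2 + 1 DIV, as were 33.9% of all genes tested, and their median log2 fold change was -3.08, against -0.0019 over all genes. The 25 replication genes ranged from -5.78 for Cdc6, which loads the MCM helicase at origins, to -1.31 for Slbp, which binds histone mRNA. Among 6 nucleotide synthesis genes, the ribonucleotide reductase subunits were the extremes, with Rrm2 at -4.77 and Rrm1 at -2.23. Of 8 others, Cdk1, the mitotic kinase, was lowest at -3.60, and Casp8ap2, the gene of a histone locus body protein, was highest at -0.61 (adjusted p = 6.89e-04). In p27KO all 39 were lower too, as were 30.2% of all genes, with a median of -2.39 against -0.0291 over all genes, and Casp8ap2 was at -0.54 (adjusted p = 0.0060).

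At 2 + 1 DIV, 22 of the 39 targets were higher in p27KO, as were 1.91% of all genes, and the log2 difference was above 0 in all 39, with a median of 0.73 against -0.0148 over all genes. Cdc6 differed by 1.98 (adjusted p = 0.0057), Ccna2, the gene of cyclin A2, by 1.74 (adjusted p = 9.37e-04) and Slbp by 0.06 (adjusted p = 0.818). The count fell without either library of p27KO DIFF, as did that of all genes, in fits that leave 1 library in this group. In a fit of only the libraries at 2 + 1 DIV it fell to 2, and the count over all genes fell from 246 to 36. Cdc6 and Ccna2 lost their calls in that fit (adjusted p = 0.133 and 0.0571). That of Cdc6 was also lost without replicate 2 of p27KO DIFF (0.0606). The interaction was passed by 4 targets, and by 0.389% of all genes in the same direction. These were Mcm5, a helicase subunit (1.18), Lig1, the replicative ligase (0.75), Rrm2 (1.33) and Ccna2 (1.72), with adjusted p-values from 0.0230 to 0.0458. Without replicate 2 or 3 of WT PRO no target passed, and 0 of all genes did. Without replicate 1 of WT PRO, 2 targets and 13 of all genes passed, and without replicate 1 of WT DIFF, 7 targets and 89 of all genes. The reported fit had 50 of all genes in this direction, and DESeq2 called 12 targets and 153 of all genes. Fits without a p27KO library leave 1 library in a group and are not counted here. In neurospheres none passed in edgeR or DESeq2, and 5 had an unadjusted p under 0.05 in edgeR. There too the log2 difference was above 0 in all 39, with a smaller median of 0.15 against -0.0039 over all genes. RefSeq windows were at hand for 33 of the targets, of which 16 held the longer and 24 the shorter motif searched in the members. Counted by window, 40% and 67.5% of their 40 windows held them, against 2.26% and 9.57% of all RefSeq windows.

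Regulators of the E2Fs changed as well. Of the pocket protein genes, Rb1 rose by 1.02 and Rbl2, which encodes p130, rose by 0.84 in WT, while Rbl1, which encodes p107, fell by 1.87 (adjusted p = 7.57e-06, 1.93e-05 and 1.62e-07). The same 3 directions passed in p27KO, at 1.09, 0.88 and -1.35. At 2 + 1 DIV Rbl1 was higher in p27KO by 0.75 (adjusted p = 0.0032), with 32.9 against 19.7 CPM. The call was lost without replicate 1 of p27KO DIFF (adjusted p = 0.0557) and in a fit of only the libraries at 2 + 1 DIV (0.0717). Rb1 and Rbl2 differed by 0.33 and -0.038 without passing. Of 9 G1 cyclins and kinases, 8 were lower in WT and none higher, where 33.9% and 33.5% of all genes tested were lower and higher. They ranged from Ccnd1, the gene of cyclin D1, at -5.89 to Cdk6, a partner kinase of D cyclins, at 0.15 (adjusted p = 0.569). None of the 9 passed between genotypes at 2 + 1 DIV or in the interaction in edgeR or DESeq2, with 2 and 1 at an unadjusted p under 0.05 in edgeR.

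The MuvB subunits form the DREAM complex with pocket proteins and E2Fs. With B-MYB, the product of Mybl2, the same subunits form its activating counterpart. The list holds genes of MuvB subunits and Mybl2. Of these 6 genes, 4 were lower and 1 was higher in WT, where 33.9% and 33.5% of all genes tested were lower and higher. Mybl2, itself an E2F target, fell by 4.11 and Lin52 rose by 1.05. Mybl2 was higher in p27KO at 2 + 1 DIV by 1.07 (adjusted p = 0.0101), but not without replicate 2 of p27KO DIFF (0.120) or in a fit of only the libraries at 2 + 1 DIV (0.176). Of 12 genes of the Polycomb complex that holds E2F6, 8 were lower and 2 higher in WT, beside the same 33.9% and 33.5% of all genes. Their range was from -0.94 for Wdr5 to 0.55 for Mga. None passed between genotypes at 2 + 1 DIV in edgeR or DESeq2, with 1 at an unadjusted p under 0.05 in edgeR. Of 5 germline genes that E2F6 is known to silence, only Stag3, a meiotic cohesin subunit, passed the filter on low counts. It went from 4.38 to 8.54 CPM in WT (log2 fold change 0.95, adjusted p = 0.0030) and was at 0.58 in p27KO (adjusted p = 0.0866). All 4 genes listed for the degradation of E2F proteins were lower in WT, as were 33.9% of all genes tested. They ranged from Cdc20 at -3.50 to Fzr1, the gene of CDH1, at -0.80. At 2 + 1 DIV, 2 of the 4 were higher in p27KO, where 1.91% of all genes tested were higher. The log2 differences of the 4 lay between 0.0192 and 1.65. Cdc20 was among those higher, at 1.43 to 1.94 under other settings, and its call was lost in some of these.

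Genes with the most similar levels were looked up over the 10 libraries among the 9749 genes that averaged 10 CPM or more, by Pearson's r of log2 CPM. The libraries fall into clusters by stage, so that r is a description and carries no test. E2f1 was most like Med14, Elovl6 and Tk1, with r from 0.996 to 0.998. E2f7 was most like Exo1, Ccna2 and Dlgap5 (0.997 to 0.998), and E2f8 was most like Clspn, Cenpn and Rrm2 (0.998 to 0.999). E2f6 was nearest to Caprin1, Orc2 and Mex3c, at lower values of 0.971 to 0.979. Tfdp2, the member that rose, was nearest to Cdkl3, Ak4 and Frmd3 (0.989 to 0.991).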

How the data were processed

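RNA-seq counts of 10 libraries were used (polyA RNA). Per the labels, the authors' processing notes name FastQC, Trimmomatic, cutadapt, STAR and RSEM, with GRCm38 (mm10). The authors deposited estimated counts per gene as whole numbers, without normalization. Symbols, positions and exon lengths were taken from GENCODE (GRCm38), which matched 48349 of 48795 genes. A gene was dropped if 4 or more of the 10 libraries had under 1 CPM of it, which left 12859. After TMM scaling, the 4 groups were fitted together in edgeR 4.0.16 (robust quasi-likelihood, limma 3.58.1, R 4.3.3). P-values were two-sided and adjusted by Benjamini-Hochberg over all genes, with a threshold of 0.05. CPM values given are without TMM factors. Alternatives were DESeq2 1.42.0, its size factors in edgeR, other filters, only the groups compared, replicate blocks, longest transcripts for lengths, and each library left out. A block with exchanged p27KO numbers was added after seeing the data. Named were all members, the extremes in WT of each list, genes passing the interaction, Rb1, Rbl1, Rbl2, Mki67, Cdkn1b and the 3 genes most similar to 5 members. The members and lists were chosen with earlier results of these data known, and 2 genes of the target lists are not reported here. Deviations from the group means correlated at 0.248 to 0.395 between WT libraries of the same number, and at -0.221 to -0.0874 between others. The numbers may thus pair WT libraries, although no label says what they mark. The reported fits use no pairing, which entered only through the replicate blocks among the alternatives. Same-numbered p27KO libraries correlated at -0.138 and the others at 0.138. With 2 libraries per group these values mirror each other by construction, so that they do not settle whether p27KO libraries are paired. Counts of replicates differed by more than sampling noise. The spread between 2 or 3 libraries limits the precision, and counting error adds to it where a gene has few counts. Steps were tested on simulated data. Python 3.11.15 was used for tables and plots.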

Additional observations from a re-analysis of the deposited data

Results flagged for a closer look

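The change from neurospheres to 2 + 1 DIV differed between the genotypes, by edgeR's test of the difference itself, for 2 members and for 5 other genes named here. The difference (change in libraries labelled p27KO minus change in WT, log2 scale) was 2.21 for E2f7 and 1.49 for E2f8. It was 1.72 for Ccna2, 0.75 for Lig1, 1.18 for Mcm5, 1.65 for Mki67 and 1.33 for Rrm2. In each case the fall was smaller in p27KO. These calls were lost in most fits with a library left out. Of 10 such fits, 1 kept the call of Lig1, 2 that of Mki67, 3 those of E2f7, E2f8 and Ccna2, and 4 those of Mcm5 and Rrm2, with adjusted p-values of up to 0.238. With a block within each genotype, Mcm5 and Rrm2 passed and the other 5 genes did not. Groups of 2 and 3 libraries are too small for a check of single libraries against the others of their group.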

How the results depend on the processing

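In WT, all 180 values of the members under other settings kept the direction and side of the threshold of their stage change, and in p27KO 171 of 180 did. With each library left out, members called higher in p27KO with stage ranged from 1 to 2, members passing the interaction from 0 to 2, targets passing it from 0 to 7, and targets higher in p27KO at 2 + 1 DIV from 7 to 22. Members called higher in p27KO with stage fell to 1 with no filter, with at least 1 CPM in 4 libraries, with the replicate block and with the block within genotype. Under these blocks, 1 and 0 members passed the interaction. In a fit of only the groups compared, members and targets higher at 2 + 1 DIV fell to 1 and 2. Targets passing the interaction were 12 with DESeq2 and 2 with the block within genotype. Calls over all genes moved as well. In the direction of E2f7 and E2f8, 50 genes passed the interaction as reported and 0 to 89 with a WT library left out. Genes higher in p27KO at 2 + 1 DIV went from 246 to 36 in a fit of only the groups compared. The cause was not tested, although fits of fewer libraries have less information by construction. The reported interaction of E2f4 (-0.0032) was 0.0132 with DESeq2's size factors, 0.0134 with DESeq2, 0.0126 without a filter, 0.0010 with at least 1 CPM in 4 libraries, and 0.0068 and 0.0136 with the blocks; without single libraries it ranged from -0.27 to 0.31. Other values near 0 also changed sign without a single library. In neurospheres between genotypes these were E2f3 (-0.0297 to 0.0395), E2f4 (-0.38 to 0.20), E2f5 (-0.19 to 0.0403), E2f6 (-0.0768 to 0.28) and Tfdp1 (-0.0367 to 0.0811). The remaining ones were E2f4 at 2 + 1 DIV between genotypes (-0.25 to 0.0902), the interaction of E2f6 (-0.0259 to 0.33) and Cdk6 in WT with stage (-0.0444 to 0.38). The replicate block over all libraries changed no other call of a member than those of E2f5 and E2f7. With the crossed block, chosen after seeing the data, E2f7 and E2f8 both passed the interaction. With longest transcripts for lengths, activators held 28.0% in WT PRO, 15.3% in WT DIFF, 28.4% in p27KO PRO and 15.4% in p27KO DIFF. Depth limits E2f1, E2f2 and E2f7 most, with 13 to 37 counts in WT DIFF.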
